A study of Mus musculus with 9 samples.

Results

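The guanylin pathway of the colon epithelium was followed through 4 of the 24421 gene symbols in the expression table: Guca2a (guanylin), Guca2b (uroguanylin), Gucy2c (guanylate cyclase C) and Prkg2 (cGMP-dependent protein kinase 2). They were picked by name as the ligands, the receptor and a kinase of the pathway, and all 4 were found. Messenger RNA had been sequenced from 9 libraries of colon epithelial cells sorted from adult female C57BL/6J mice, 3 libraries for each of 3 populations. Every population carried the epithelial antigen Epcam, and dead cells, doublets and cells with the leukocyte or endothelial antigens Cd3, Cd16/Cd32, Cd31 or Cd45 had been gated out. From the bottom of the crypt came an Lgr5-enriched gate (Cd44 present, Kit absent) and a goblet-enriched gate (Cd44 and Kit present). From the top of the crypt came an enterocyte-enriched gate (Cd44 absent, Cd66a high). The mice carried no engineered allele or treatment that the labels name. Each gate is an enrichment, so a library can hold other epithelial cells. The series text speaks both of an independent mouse for each replicate and of 3 mice for the 9 samples, so whether same-numbered libraries share a mouse is not settled by it.

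Guanylin and uroguanylin are small peptides that epithelial cells of the intestine secrete into the lumen as longer precursors. Both bind guanylate cyclase C, a receptor on the apical membrane of the epithelium that also binds the heat-stable enterotoxin of Escherichia coli, and its cyclase domain makes cyclic GMP. Cyclic GMP acts through kinases such as cGMP-dependent protein kinase 2 on the chloride channel Cftr and the sodium-proton exchanger Slc9a3, so that salt and water stay in the lumen, and phosphodiesterases end the signal.

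The ligand genes lie side by side. In the mm10 build, Guca2a (ENSMUSG00000023247.2) occupies chr4:119637704-119639471 on the plus strand and Guca2b (ENSMUSG00000032978.14) occupies chr4:119656607-119658954 on the minus strand. The GENCODE M21 annotation gives 3 exons to each. They are transcribed towards each other across a gap of 17.1 kb with no protein-coding gene between them. The active peptides are cut from the carboxyl end of the precursors, and the last 15 codons before the stop are shown here from the GENCODE transcripts, 5′ to 3′ on the coding strand, because they are the part of the transcripts that names the genes as relatives. Capitals mark the codons for cysteine, TGT and TGC.
Guca2a: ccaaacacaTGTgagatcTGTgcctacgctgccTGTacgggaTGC
Guca2b: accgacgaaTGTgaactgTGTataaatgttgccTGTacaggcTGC
The Guca2a stretch is chr4:119639228-119639272 and the Guca2b stretch is chr4:119656795-119656839. Cysteine codons stand at codons 4, 7, 12 and 15 in both, 29 of the 45 bases are identical (64.4%), and 5 of the 15 codons are identical. Both annotated coding transcripts of Guca2b end in these codons. Gucy2c (chr6:136697284-136781765, minus strand, up to 27 exons) and Prkg2 (chr5:98929773-99037351, minus strand, up to 19 exons) lie on other chromosomes.

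The promoters of the ligand genes are shown because the 2 neighbours were highest in different populations, as the values given further on show. The windows come from the RefSeq promoter table (GRCm38.p6), which held both ligand genes, and stop before the first annotated transcript start, which left 222 bases for Guca2a (chr4:119637482-119637703) and 241 bases for Guca2b (chr4:119658955-119659195, minus strand). Both are written 5′ to 3′ on the strand of the gene, and capitals mark exact matches to the motifs searched.
Guca2a: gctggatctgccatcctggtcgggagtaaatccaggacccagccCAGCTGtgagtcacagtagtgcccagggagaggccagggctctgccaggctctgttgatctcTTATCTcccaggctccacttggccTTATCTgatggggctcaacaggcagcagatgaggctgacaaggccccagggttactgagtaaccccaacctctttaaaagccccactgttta
Guca2b: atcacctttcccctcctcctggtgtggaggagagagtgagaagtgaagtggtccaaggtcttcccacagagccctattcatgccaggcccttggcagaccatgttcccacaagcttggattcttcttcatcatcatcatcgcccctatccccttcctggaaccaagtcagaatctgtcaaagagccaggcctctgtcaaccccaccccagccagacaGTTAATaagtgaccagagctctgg
The motifs searched on both strands were the letters GTTAAT, the HNF4 core CAAAGT, the CDX motif TTTATG, the GATA motif AGATAA, the TCF motif ATCAAAG, the E-box CAGCTG and the GC box GGGCGG. No pair of these matches overlapped. The Guca2a window held AGATAA on the opposite strand 144 and 120 bases before the RefSeq start, and CAGCTG 206 bases before it. The Guca2b window held GTTAAT 33 bases before its start. Of 32851 RefSeq windows of 250 bases, 9.99% held AGATAA, 13.0% held CAGCTG and 6.43% held GTTAAT. The HNF4, CDX, TCF and GC box motifs, which 12.6%, 10.8%, 3.21% and 32.7% of the windows held, had no match in either. A match describes letters only.

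The libraries held 11.2 to 26.8 M reads (M, times 1000000) in genes, recovered from the deposited values as lower bounds. Values are given in TPM, transcripts per 1000000, a level per transcript length within a library. The library labelled enterocyte-enriched replicate 1 goes against its female label, and against a mouse shared with the other libraries numbered 1: Xist was 0.128 TPM there and 110 to 204 TPM in the other 8, and 4 Y-linked genes summed to 138.6 TPM there and to at most 0.325 TPM elsewhere. The pre-ribosomal transcript Rn45s took 49046 TPM in Lgr5-enriched replicate 1 and 2356 to 6009 TPM in the other 8. All 3 gates had their markers. Summed over 10 Lgr5 stem cell markers the level was 1309 to 1589 TPM in the Lgr5-enriched libraries, against 756 to 781 TPM in the goblet-enriched and 253 to 342 TPM in the enterocyte-enriched libraries. Slc12a2 alone was 498 to 643 TPM of the Lgr5-enriched sums. In goblet-enriched against Lgr5-enriched libraries 6 of the 10 were called lower, 1 (Tnfrsf19) higher and 3 were not called, where 34.3% of all genes tested were called. Over 11 colonocyte markers the summed level was 15930 to 40913 TPM in the enterocyte-enriched libraries, 2184 to 2416 TPM in the Lgr5-enriched and 813 to 1688 TPM in the goblet-enriched libraries. Over 11 goblet markers it was 46074 to 66514 TPM in the goblet-enriched libraries and 1544 to 1681 TPM in the Lgr5-enriched libraries. Agr2, Spink4 and Muc2 had the highest goblet-enriched means of the list, 21551, 16662 and 11438 TPM. The sum was also 14682 to 23703 TPM in the enterocyte-enriched libraries. All 11 were called higher there than in the Lgr5-enriched libraries, where 49.6% of all genes tested were called, 12% higher. Between goblet-enriched and enterocyte-enriched libraries 5 of the 11 were called higher, 2 (Tff3 and Zg16) lower and 4 were not called, with 44.1% of all genes called. Tuft, leukocyte, and stromal and endothelial markers summed to at most 59.8, 251 and 8.85 TPM in any library.

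Guanylin was the most abundant of the 4 transcripts in the enterocyte-enriched and goblet-enriched populations, and its level stepped down from the enterocyte-enriched to the goblet-enriched to the Lgr5-enriched libraries. Guca2a stood at 2044, 4302 and 2418 TPM in enterocyte-enriched replicates 1, 2 and 3. It stood at 541, 995 and 876 TPM in the goblet-enriched replicates and at 34.7, 210.7 and 117.6 TPM in the Lgr5-enriched replicates, in the same order. The 3 populations did not overlap, and in each of them replicate 1 was the lowest and replicate 2 the highest. In enterocyte-enriched replicate 2 it ranked 12 among the 15953 genes above 0. The Lgr5-enriched libraries differed the most among themselves, by 6.07 times from lowest to highest, on 203, 572 and 371 reads. Counting error alone gave 30.1 to 39.8 TPM for replicate 1 and 194 to 229 TPM for replicate 2 (exact Poisson 95% intervals, which cover counting error only), so the spread between these libraries was wider than counting error.

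Differences were tested with limma on log2(TPM + 1) over the 12888 genes that reached 1 TPM in 3 or more libraries. Called means a limma p below 0.05 after Benjamini-Hochberg adjustment over those genes. The 3 comparisons share libraries and are not independent. The mean of Guca2a was 2921 ± 1210 TPM (SD, n = 3) in the enterocyte-enriched libraries and 121 ± 88.0 TPM (SD, n = 3) in Lgr5-enriched libraries, a 24.1-fold ratio of means, with a log2 difference of 4.84 (SE 0.58, limma adjusted p = 0.000326). The goblet-enriched mean was 804 ± 235 TPM (SD, n = 3), 6.65-fold the Lgr5-enriched mean, with a log2 difference of 3.01 (SE 0.58, limma adjusted p = 0.00456). Both ratios rest on the spread of the Lgr5-enriched libraries. Without Lgr5-enriched replicate 2 they became 38.4-fold and 10.6-fold, and without Lgr5-enriched replicate 1 they became 17.8-fold and 4.90-fold. Between the goblet-enriched and enterocyte-enriched libraries the log2 difference was -1.83 (SE 0.58, 95% interval -3.14 to -0.52, limma adjusted p = 0.0295), with the enterocyte-enriched mean 3.63-fold higher. That call was lost with no filter on low values (adjusted p = 0.0525) and when goblet-enriched replicate 1 (0.0917), goblet-enriched replicate 3 (0.0584), enterocyte-enriched replicate 2 (0.0939) or enterocyte-enriched replicate 3 (0.0542) was left out, while the sign held in all 20 alternatives. Without enterocyte-enriched replicate 1 the 3 log2 differences were 5.06, 3.01 and -2.05, with limma adjusted p of 0.00121, 0.00613 and 0.0432. In bulk libraries, fewer cells that express a gene and less of its RNA per cell cannot be told apart.

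Uroguanylin had another order, with the goblet-enriched libraries highest. Guca2b stood at 132.7, 202 and 147 TPM in goblet-enriched replicates 1, 2 and 3, on 454, 640 and 455 reads. It stood at 24.6, 36.5 and 41.8 TPM in the enterocyte-enriched replicates, on 71, 151 and 144 reads. In the Lgr5-enriched replicates it stood at 14.8, 15.1 and 10.9 TPM, on 93, 44 and 37 reads. Again no libraries of different populations overlapped, and here the enterocyte-enriched libraries lay nearer to the Lgr5-enriched than to the goblet-enriched ones. The means were 160.5 ± 36.7, 34.3 ± 8.80 and 13.6 ± 2.34 TPM (SD, n = 3 each) in the goblet-enriched, enterocyte-enriched and Lgr5-enriched libraries. The goblet-enriched mean was 11.8-fold the Lgr5-enriched mean, with a log2 difference of 3.45 (SE 0.23, limma adjusted p = 1.76e-05). It was 4.68-fold the enterocyte-enriched mean, with a log2 difference of 2.20 (SE 0.23, limma adjusted p = 0.000143). The enterocyte-enriched mean was 2.51-fold the Lgr5-enriched mean, with a log2 difference of 1.25 (SE 0.23, limma adjusted p = 0.00220). Without enterocyte-enriched replicate 1, Guca2b differed by 1.99 between goblet-enriched and enterocyte-enriched and by 1.47 between enterocyte-enriched and Lgr5-enriched libraries on the log2 scale (limma adjusted p = 0.000472 and 0.00176).

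**Figure D1:**
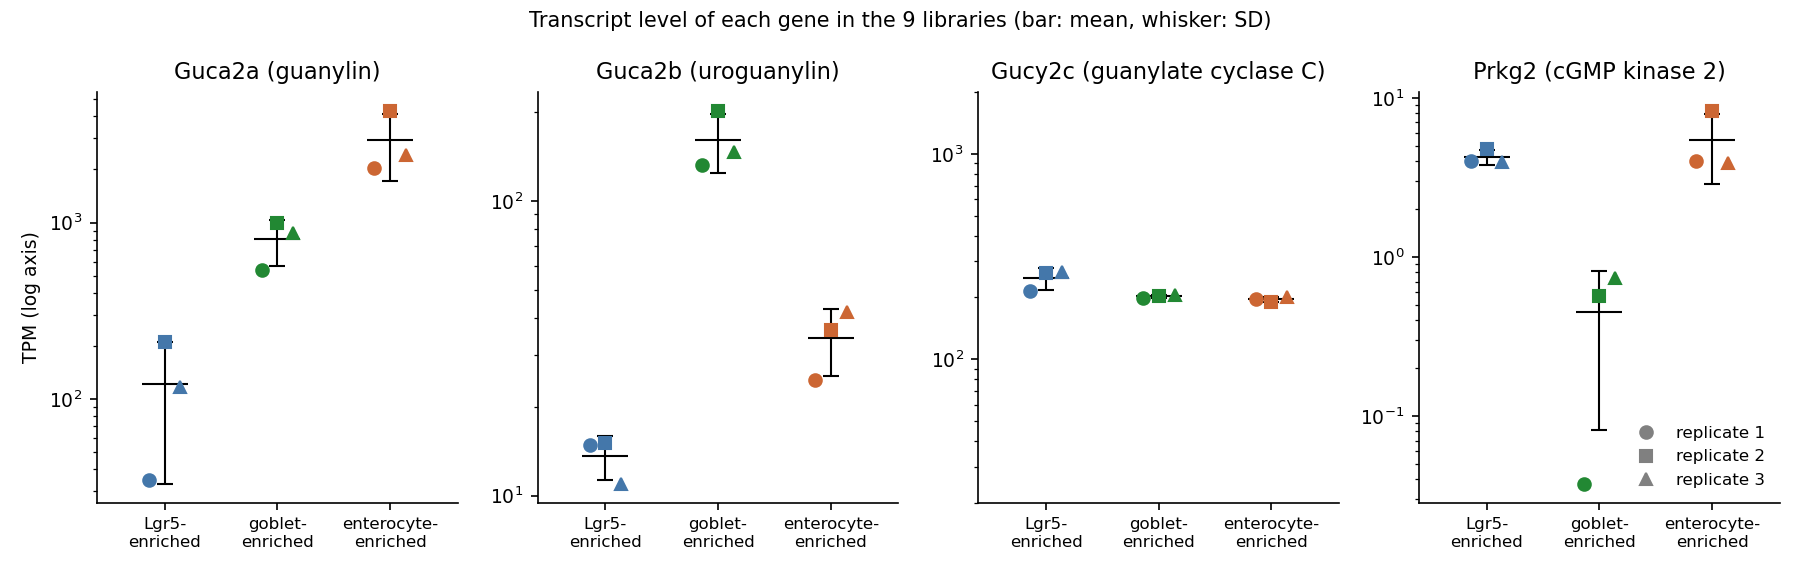
Level in TPM (log axis) of Guca2a, Guca2b, Gucy2c and Prkg2 in each of the 9 libraries, with points shaped by replicate number, a bar at the mean and a whisker of 1 SD over the 3 libraries of a population. Guca2a is highest in the enterocyte-enriched libraries (2044 to 4302 TPM), Guca2b in the goblet-enriched libraries (132.7 to 202 TPM), Gucy2c lies between 190.4 and 266 TPM everywhere, and Prkg2 is lowest in the goblet-enriched libraries (0.0373 to 0.742 TPM).

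Of the 4 genes, 2 were called higher (Guca2a, Guca2b) and 1 lower (Gucy2c) in enterocyte-enriched than in Lgr5-enriched libraries, where 49.6% of all genes tested were called, 12% higher and 37.6% lower. Goblet-enriched libraries had 2 called higher (Guca2a, Guca2b) and 1 lower (Prkg2) than Lgr5-enriched ones, with 34.3% of all genes called, 10.7% higher and 23.6% lower. They had 1 called higher (Guca2b) and 2 lower (Guca2a, Prkg2) than enterocyte-enriched ones, with 44.1% of all genes called, 28.2% higher and 15.9% lower. With such a background the number of members called says little about them, and their sizes and orders are what the values show. The call rate leans on scale: of the genes called, 24.2%, 31.3% and 63.9% were higher in the first-named population of the 3 comparisons, and 54.5%, 54.3% and 48.1% after median-of-ratios scaling. Quantile normalization gave 45.6%, 49.2% and 54.8%. The median log2 difference of all genes tested was -0.35, -0.26 and 0.20 on the TPM scale and 0.02, -0.05 and 0.04 after median-of-ratios scaling.

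The balance of the 2 ligands, taken as a ratio of TPM within a library, set the enterocyte-enriched libraries apart. Guca2a exceeded Guca2b by 83.0, 118 and 57.8 times in enterocyte-enriched replicates 1, 2 and 3. It exceeded Guca2b by 4.08, 4.92 and 5.97 times in the goblet-enriched replicates and by 2.34, 13.9 and 10.7 times in the Lgr5-enriched replicates. The lowest enterocyte-enriched ratio was above the highest of both other populations, whereas the goblet-enriched ratios lay inside the Lgr5-enriched range. On the log2 scale the means were 6.37 ± 0.51, 2.30 ± 0.28 and 2.82 ± 1.39 (SD, n = 3 each). The differences were 3.55 between enterocyte-enriched and Lgr5-enriched, -4.07 between goblet-enriched and enterocyte-enriched, and -0.52 between goblet-enriched and Lgr5-enriched libraries, with two-sided exact permutation p of 0.1, 0.1 and 0.5. With 3 libraries against 3, 0.1 is the smallest p this test can give, and adjusted over the 6 ratio tests the values were 0.12, 0.12 and 0.5.

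Ligand transcripts, the sum of Guca2a and Guca2b, were also set against the receptor transcript in the same library. The ratio of the summed ligands to Gucy2c was 0.232, 0.858 and 0.483 in Lgr5-enriched replicates 1, 2 and 3. It was 3.38, 5.87 and 4.99 in the goblet-enriched and 10.5, 22.8 and 12.3 in the enterocyte-enriched replicates. Receptor transcript thus exceeded ligand transcript in all 3 Lgr5-enriched libraries and in none of the other 6, and the 3 populations did not overlap. The log2 means were -1.13 ± 0.95, 2.21 ± 0.41 and 3.84 ± 0.59 (SD, n = 3 each). The differences of 4.97, 3.34 and -1.63, in the order enterocyte-enriched less Lgr5-enriched, goblet-enriched less Lgr5-enriched and goblet-enriched less enterocyte-enriched, each gave an exact permutation p of 0.1, the smallest possible, and 0.12 after adjustment over the 6 tests.

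**Figure D2:**
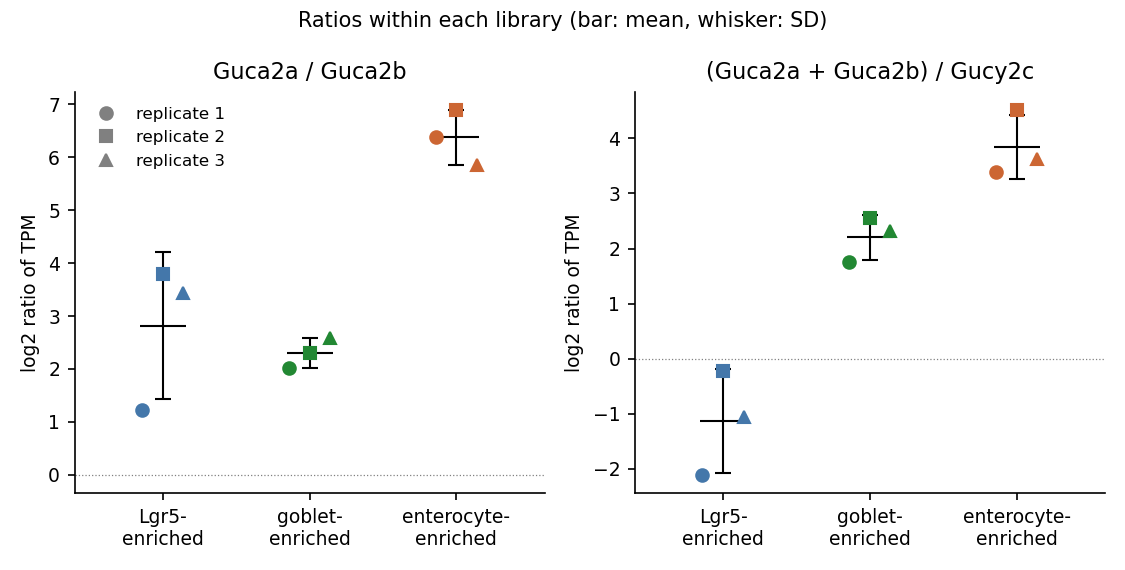
Log2 ratio of TPM within each library for Guca2a to Guca2b (left) and for the summed ligands to Gucy2c (right), with a bar at the mean and a whisker of 1 SD over 3 libraries, and a dotted line where the 2 sides are equal. The enterocyte-enriched libraries are apart on the left (means 6.37 against 2.30 and 2.82), and on the right the Lgr5-enriched libraries are below the line and the other 6 above it.

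The ligands were set beside the markers of the population in which each was highest. The goblet-enriched mean of Guca2a was 27.5% of its enterocyte-enriched mean (18.5%, 34.1% and 30.0% in the 3 goblet-enriched libraries). For the 11 colonocyte markers the same share was 0 to 5.23% with a median of 1.40%, and all 11 were below that of Guca2a. The first 3 of that list, Car1, Car4 and Slc26a3, were at 1.53%, 1.14% and 1.39%, and Alpi was the one at 0. Among the enterocyte-enriched libraries, replicate 2 had the highest Guca2a and the lowest colonocyte marker sum, 15930 TPM against 40913 and 17964 TPM in replicates 1 and 3. Most of that sum was Lypd8, at 33388.5, 12191 and 14640 TPM in replicates 1, 2 and 3. The markers did not move together: Car1, Cyp2c55 and Mep1a were highest in replicate 2, and the others of the list in replicate 1. In the Lgr5-enriched libraries the Guca2a mean was 4.14% of its enterocyte-enriched mean, inside the range of the colonocyte markers there (0.899% to 15.7%, median 2.76%, with 8 of 11 below Guca2a).

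Guca2b in the enterocyte-enriched libraries was at 21.4% of its goblet-enriched mean. The 11 goblet markers were at 8.46% to 1587% of theirs, with a median of 19.2% and 6 of 11 below Guca2b. The defining markers Muc2 and Spink4 were at 10.6% and 14.9%, while Tff3 was at 171% and Zg16 was the one at 1587%. Guca2b in the enterocyte-enriched libraries thus lay within the range of goblet markers there. On the same scale Guca2a was at 363% of its goblet-enriched mean, also within that range, between Tff3 and Zg16. The part that goblet cells in the enterocyte gate have in the level of either ligand was not tested. In the Lgr5-enriched libraries Guca2b was at 8.497% of its goblet-enriched mean, against 0.461% to 27.6% for the goblet markers, 10 of 11 of them below it. None of the goblet markers was at 0 in any population.

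**Figure D3:**
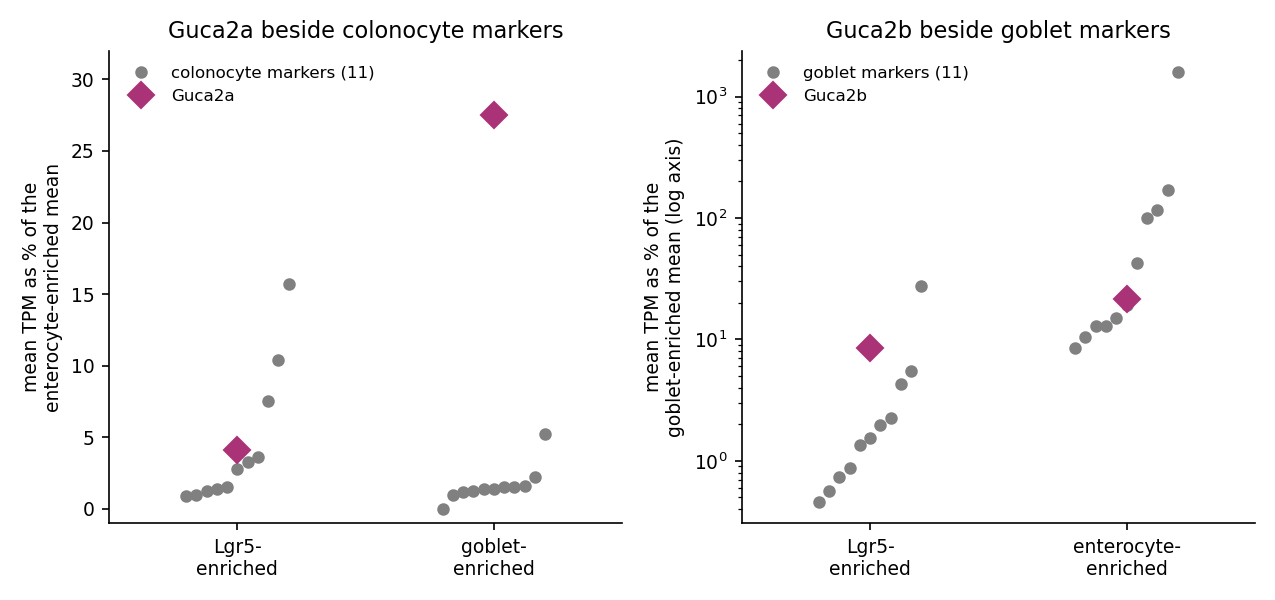
Mean TPM as a percentage of the mean in the reference population, for Guca2a beside 11 colonocyte markers (left, reference enterocyte-enriched) and for Guca2b beside 11 goblet markers (right, log axis, reference goblet-enriched), each grey point being 1 marker. In the goblet-enriched libraries Guca2a stands at 27.5%, above all 11 colonocyte markers, while in the enterocyte-enriched libraries Guca2b at 21.4% stands among the goblet markers.

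The means of the genes that flank the ligand pair did not have the order of either ligand. Foxj3, 8.6 kb on the far side of Guca2a, averaged 33.1, 34.2 and 27.0 TPM in Lgr5-enriched, goblet-enriched and enterocyte-enriched libraries. Hivep3, 74.8 kb beyond Guca2b, averaged 1.88, 1.62 and 0.862 TPM, a low level at which log2(TPM + 1) understates a change. Neither was called in any comparison by limma (lowest adjusted p 0.179 for Foxj3 and 0.0682 for Hivep3), against changes of up to 24.1-fold and 11.8-fold for Guca2a and Guca2b.

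Guanylate cyclase C, the receptor of both peptides, was the most even of the 4. Gucy2c stood at 213.8, 263.4 and 266.3 TPM in Lgr5-enriched replicates 1, 2 and 3, at 199.3, 204.0 and 205.2 TPM in the goblet-enriched replicates, and at 196.4, 190.4 and 199.9 TPM in the enterocyte-enriched replicates. Its highest library was 1.40 times its lowest over all 9, against 124 times for Guca2a, 18.5 times for Guca2b and 222 times for Prkg2. The depth was not the limit, with 3716 to 8784 reads in each library. The Lgr5-enriched libraries were all above the other 6, while goblet-enriched and enterocyte-enriched libraries overlapped. The means were 248 ± 29.5 TPM in Lgr5-enriched, 203 ± 3.10 TPM in goblet-enriched and 196 ± 4.84 TPM in enterocyte-enriched libraries (SD, n = 3 each).

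The differences of Gucy2c were small and moved with the scale. The log2 difference between enterocyte-enriched and Lgr5-enriched libraries was -0.33 (SE 0.12, 95% interval -0.59 to -0.07, limma adjusted p = 0.0374), close to the median of -0.35 over all genes. After median-of-ratios scaling it was 0.08 (limma adjusted p = 0.573). The call was also lost with only the 6 libraries compared (adjusted p = 0.0622), with limma-voom on the recovered reads (log2 difference -0.22, adjusted p = 0.196), and on leaving out Lgr5-enriched replicate 2 (0.118) or 3 (0.137), goblet-enriched replicate 2 (0.0596) or 3 (0.0541), or enterocyte-enriched replicate 1 (0.0684), 2 (0.105) or 3 (0.0733). Between goblet-enriched and Lgr5-enriched libraries the difference was -0.28 (95% interval -0.54 to -0.02, limma adjusted p = 0.0877), and it passed the threshold with the replicate number as a block (adjusted p = 0.0486), with library weights (0.00178), without Lgr5-enriched replicate 1 (0.0252) and without the 3 libraries numbered 1 (0.00988). It also shrank in other settings: over the 20 alternatives it ranged from -0.38 to -0.06, with limma adjusted p of 0.00178 to 0.723. Between goblet-enriched and enterocyte-enriched libraries it was 0.05 (95% interval -0.21 to 0.31, limma adjusted p = 0.733), and its sign turned to -0.14 with median-of-ratios scaling and to -0.01 with limma-voom. That interval does not show that the levels were alike.

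**Figure D4:**
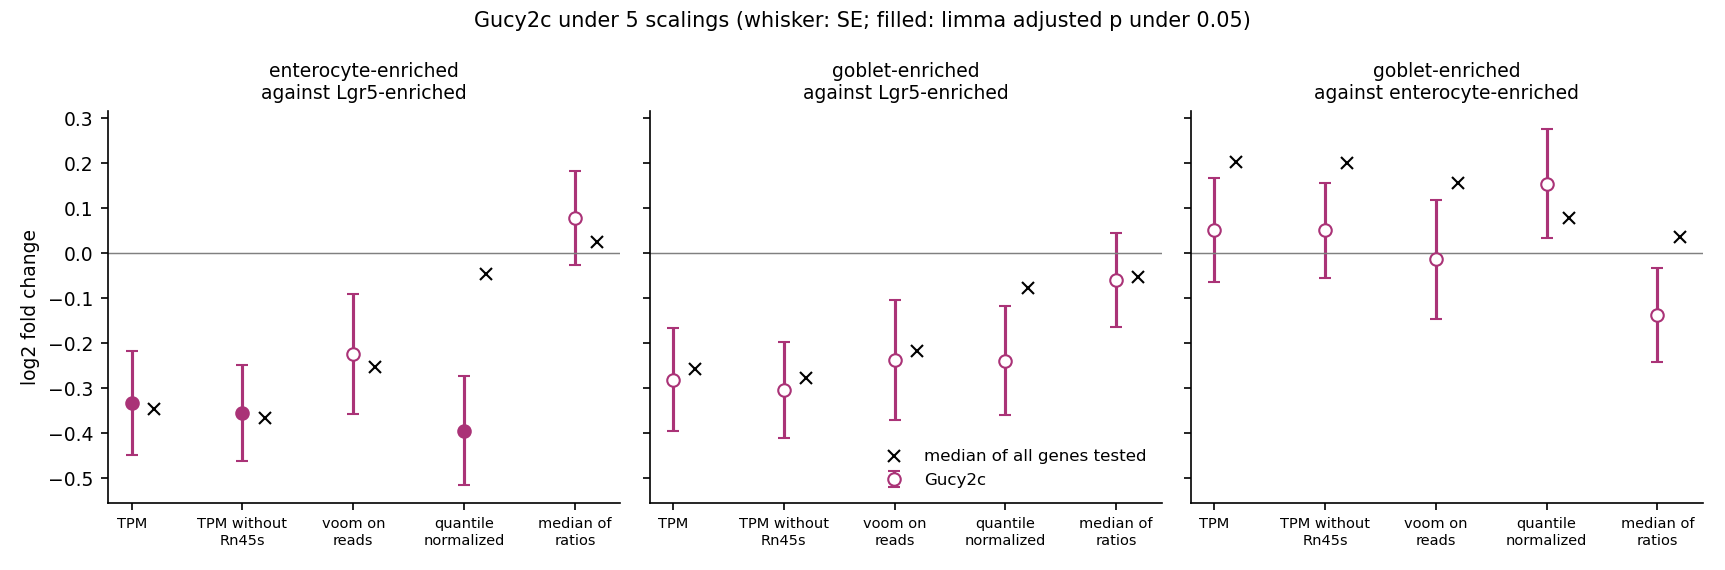
Log2 difference of Gucy2c in the 3 comparisons under 5 scalings, with a whisker of 1 SE, filled where the limma adjusted p was below 0.05, and a cross for the median of all genes tested. The difference between enterocyte-enriched and Lgr5-enriched libraries goes from -0.33 on the TPM scale to 0.08 with median-of-ratios scaling, that between goblet-enriched and enterocyte-enriched libraries goes from 0.05 to -0.14, and in the first 2 comparisons the cross is also higher with median-of-ratios scaling than on the TPM scale.

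Guanylate cyclase C was the one membrane guanylate cyclase at an appreciable level. Of 13 other guanylate cyclases and natriuretic peptide receptors listed, 11 were in the table, 2 of those were at 0 in every library, and none reached the level needed for testing. The highest population mean among them was 0.535 TPM, for the natriuretic peptide receptor Npr1 in the goblet-enriched libraries, where Gucy2c averaged 203 TPM. Among the 6 natriuretic peptides and nitric oxide synthases, Nos2, which makes the nitric oxide that soluble guanylate cyclase senses, was the one tested and was not called (limma adjusted p = 0.447, 0.268 and 0.680 in the 3 comparisons). It stood at 159.6 TPM in Lgr5-enriched replicate 1, at 38.4 TPM in enterocyte-enriched replicate 1 and at 12.1 TPM in goblet-enriched replicate 1, and at 0.380 to 8.23 TPM in the other 6 libraries. The libraries numbered 1 were thus apart from the rest in this gene, whatever their population.

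The kinase gene Prkg2 was low everywhere and lowest in the goblet-enriched libraries. Prkg2 stood at 0.0373, 0.565 and 0.742 TPM in goblet-enriched replicates 1, 2 and 3, on 1, 14 and 18 reads. It stood at 3.998, 4.74 and 3.97 TPM in the Lgr5-enriched replicates and at 3.99, 8.30 and 3.90 TPM in the enterocyte-enriched replicates, on 90 to 269 reads. All goblet-enriched libraries lay below the other 6, and the Lgr5-enriched and enterocyte-enriched libraries overlapped. The single read of goblet-enriched replicate 1 allows 0.000945 to 0.208 TPM (exact Poisson 95% interval, counting error only), which is still below every library of the other populations.

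The means of Prkg2 were 4.24 ± 0.440 TPM in Lgr5-enriched, 0.448 ± 0.366 TPM in goblet-enriched and 5.39 ± 2.52 TPM in enterocyte-enriched libraries (SD, n = 3 each). The goblet-enriched mean was 9.46-fold below the Lgr5-enriched mean, with a difference of -1.89 on the log2(TPM + 1) scale (SE 0.30, limma adjusted p = 0.00185). It was 12.04-fold below the enterocyte-enriched mean, with a difference of -2.11 (SE 0.30, limma adjusted p = 0.000638), and without enterocyte-enriched replicate 1 of -2.25 (limma adjusted p = 0.00175). At such levels the pseudocount sets the size: with 0.1 in place of 1 the differences were -3.83 and -4.27, and with 5 they were -0.76 and -0.91, all still called. Enterocyte-enriched and Lgr5-enriched libraries differed by 0.22 (95% interval -0.45 to 0.90, limma adjusted p = 0.561), and by -0.08 without enterocyte-enriched replicate 2. Over 10 enteroendocrine markers the summed level was 14.1 to 84.8 TPM in goblet-enriched, 159 to 299.7 TPM in Lgr5-enriched and 150.3 to 242 TPM in enterocyte-enriched libraries. The hormone genes Pyy, Gcg and Insl5 carried that difference, with means of 1.03, 0.562 and 0.956 TPM in goblet-enriched against 88.4, 33.9 and 49.1 TPM in Lgr5-enriched libraries. They were the 3 called lower there of 8 markers tested, where 34.3% of all genes tested were called, 23.6% lower. The means of Chgb (27.2 against 19.8 TPM), Neurod1 (1.21 against 0.424 TPM) and Insm1 (3.69 against 1.11 TPM) were higher in goblet-enriched libraries and not called. Between goblet-enriched and enterocyte-enriched libraries 4 of the 8 were called lower, where 44.1% of all genes tested were called, 15.9% lower. Nothing is read from these counts of a short list. The part of enteroendocrine cells in the level of Prkg2 was not tested. Over the gene, the annotation places 1 pseudogene on the same strand, Gm3470, which is not in the table.

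Phosphodiesterases, which break cyclic GMP down, were followed next. Of 18 listed phosphodiesterases and cyclic nucleotide exporters, 10 were tested. Between enterocyte-enriched and Lgr5-enriched libraries 1 was called higher and 4 lower (median log2 difference -0.85, against -0.35 over all genes, of which 49.6% were called). Between goblet-enriched and Lgr5-enriched libraries 2 were higher and 5 lower (median -0.55, against -0.26, with 34.3% of all genes called), and between goblet-enriched and enterocyte-enriched libraries 4 were higher and 2 lower (median 0.14, against 0.20, with 44.1% called). The number of calls in the first comparison was that of the background, so the results lie in the single genes.

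Pde2a, whose product is itself stimulated by cyclic GMP, was high in the libraries where uroguanylin was high. It stood at 328, 437 and 419 TPM in goblet-enriched replicates 1, 2 and 3, against 16.1 to 35.0 TPM in Lgr5-enriched and 33.9 to 54.6 TPM in enterocyte-enriched libraries, with log2 differences of 3.86 and 3.16 (SE 0.28 each, limma adjusted p = 3.16e-05 and 7.16e-05). Pde9a, which is specific for cyclic GMP, was highest in the enterocyte-enriched libraries, the population where guanylin was highest. It stood at 155.5 to 311 TPM there, against 69.2 to 94.3 TPM in Lgr5-enriched and 57.7 to 69.3 TPM in goblet-enriched libraries (log2 differences of 1.48 from Lgr5-enriched and of -1.74 between goblet-enriched and enterocyte-enriched, limma adjusted p = 0.00107 and 0.000490). Unlike guanylin, Pde9a was not called between goblet-enriched and Lgr5-enriched libraries (log2 difference -0.27, limma adjusted p = 0.405). Pde5a, also specific for cyclic GMP, was highest in the Lgr5-enriched libraries, with a mean of 58.4 ± 4.52 TPM against 30.0 ± 3.86 in goblet-enriched and 30.4 ± 2.82 TPM in enterocyte-enriched libraries (n = 3 each, limma adjusted p = 0.00125 and 0.000820). Pde3a, a cyclic AMP phosphodiesterase that cyclic GMP inhibits, was at 1.501 to 8.74 TPM in goblet-enriched libraries against 48.9 to 57.6 TPM in Lgr5-enriched and 28.4 to 34.2 TPM in enterocyte-enriched libraries, the same low population as Prkg2. Its relative Pde3b fell from 20.4 ± 0.864 TPM in Lgr5-enriched to 8.14 ± 1.02 in goblet-enriched and 3.22 ± 1.12 TPM in enterocyte-enriched libraries (SD, n = 3 each), and all 3 differences were called. The exporter Abcc4 averaged 19.9, 14.2 and 5.65 TPM in the same order and was called lower in enterocyte-enriched libraries than in both others.

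Of the targets and scaffolds of cyclic GMP kinases in salt transport, all 15 listed were tested. Between enterocyte-enriched and Lgr5-enriched libraries 4 were called higher and 4 lower, between goblet-enriched and Lgr5-enriched libraries 1 was higher and 8 lower, and between goblet-enriched and enterocyte-enriched libraries 3 were higher and 8 lower. Over all genes 49.6%, 34.3% and 44.1% were called, and the first count was near that background. The median log2 differences were 0.14, -0.88 and -1.03, against -0.35, -0.26 and 0.20 over all genes.

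Cftr, the chloride channel of the pathway, was highest where the ligand transcripts were lowest. It stood at 190.0, 251 and 239 TPM in Lgr5-enriched replicates 1, 2 and 3, at 45.9 to 89.3 TPM in enterocyte-enriched and at 26.5 to 38.5 TPM in goblet-enriched libraries. The 3 populations did not overlap, and all 3 differences were called (log2 -1.66, -2.69 and -1.03, limma adjusted p = 0.000969, 0.000137 and 0.0117). The exchanger Slc9a3, which the pathway inhibits, was at 43.2 to 107 TPM in enterocyte-enriched libraries, at 0.577 to 1.43 TPM in Lgr5-enriched and at 0.0704 to 3.11 TPM in goblet-enriched libraries. Its relative Slc9a2 averaged 150 ± 23.6 TPM in enterocyte-enriched, 39.9 ± 3.52 in Lgr5-enriched and 4.40 ± 3.32 TPM in goblet-enriched libraries (SD, n = 3 each), called in all 3 comparisons. The scaffolds also parted: Slc9a3r2, which tethers the kinase to the exchanger, was at 49.7 to 74.6 TPM in goblet-enriched libraries against 2.89 to 7.72 TPM in the other 6 (log2 differences 3.70 from Lgr5-enriched and 3.45 from enterocyte-enriched, limma adjusted p = 4.37e-05 and 5.83e-05). Pdzd3, a scaffold that binds guanylate cyclase C, was at 0.241 to 5.24 TPM in goblet-enriched libraries against 9.84 to 27.9 TPM in Lgr5-enriched and 38.7 to 49.5 TPM in enterocyte-enriched libraries, and was called lower in the goblet-enriched libraries than in both others (limma adjusted p = 0.00687 and 0.000773). The goblet-enriched libraries thus held high Guca2b, Pde2a and Slc9a3r2 beside low Prkg2, Pde3a and Pdzd3, while Slc9a3 was also low in Lgr5-enriched libraries (0.944 TPM on average, against 1.09 TPM in goblet-enriched, limma adjusted p = 0.809).

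**Figure D5:**
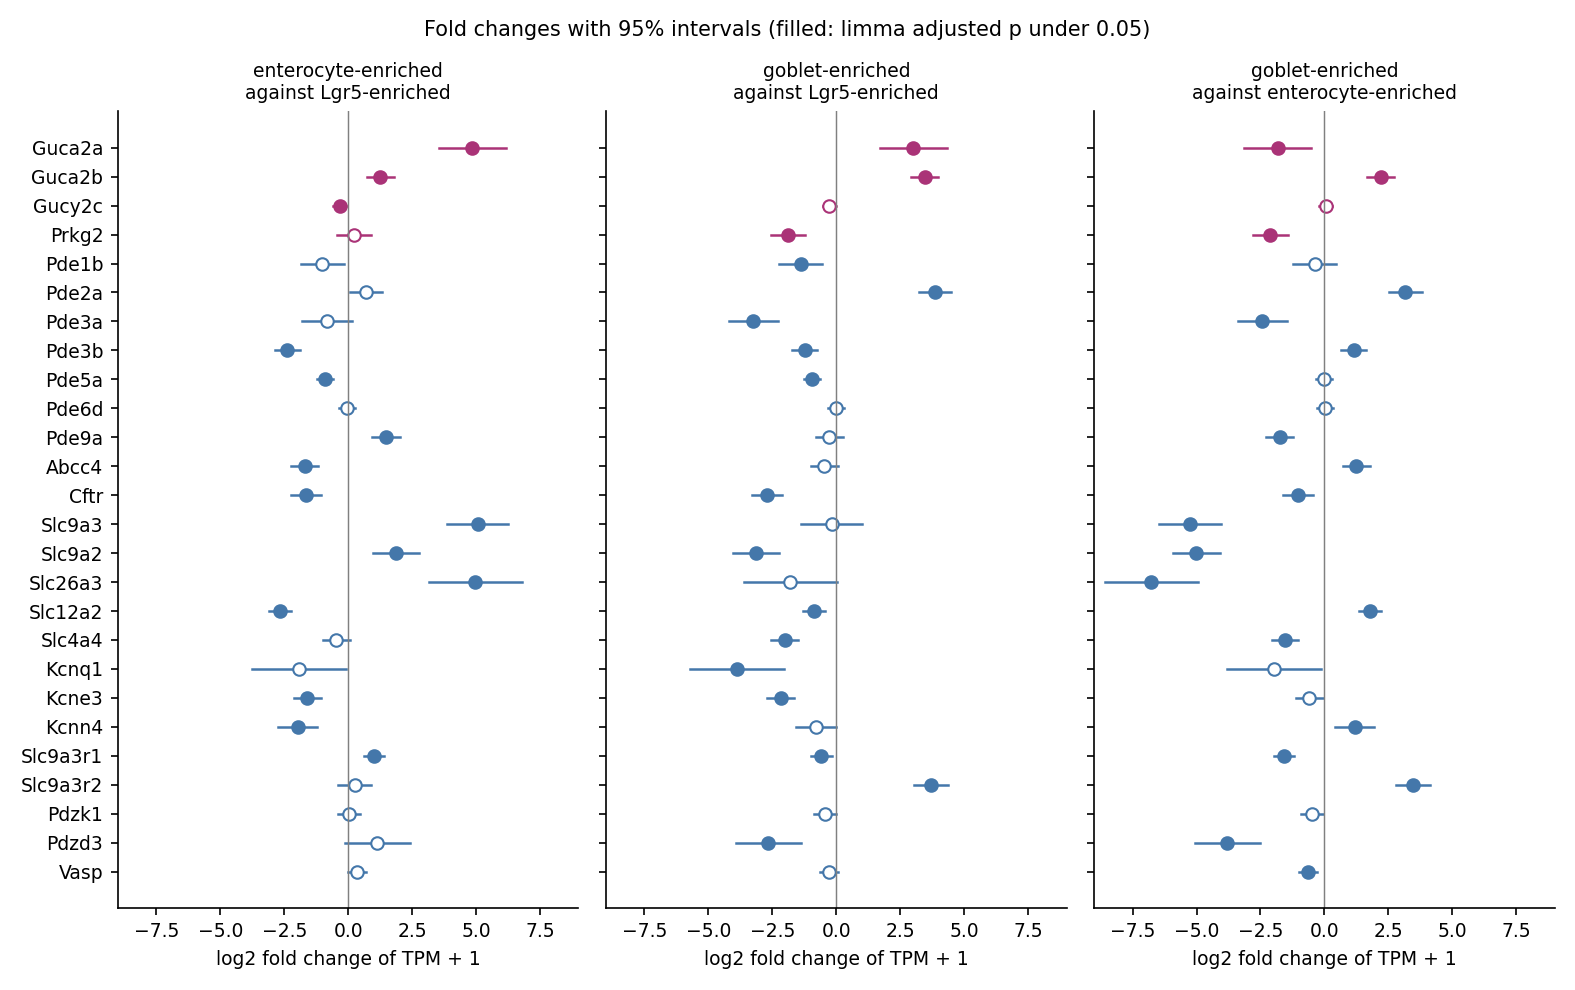
Log2 fold changes of TPM + 1 with 95% intervals for the 4 genes (purple) and for the listed phosphodiesterases, exporter, transporters and scaffolds with a mean of at least 5 TPM in a population (blue), filled where the limma adjusted p was below 0.05. Guca2a and Guca2b are to the right in both comparisons with Lgr5-enriched libraries and part in the last, where Guca2a is at -1.83 and Guca2b at 2.20, beside Pde2a at 3.16 and Slc9a3 at -5.25, while Gucy2c stays near 0 and changes sign with median-of-ratios scaling in the first and last comparison.

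Other kinases of cyclic nucleotides were tested beside Prkg2. Of 13 listed kinase subunits and channels, 5 were tested, all of them subunits of the cyclic AMP kinase. Prkar1a and Prkar2b were called lower in enterocyte-enriched than in Lgr5-enriched and than in goblet-enriched libraries, and Prkacb was called lower in goblet-enriched than in Lgr5-enriched libraries. The calls on Prkar1a were lost with median-of-ratios scaling (limma adjusted p = 0.391 and 0.294), and that between goblet-enriched and enterocyte-enriched libraries also without goblet-enriched replicate 1 (0.0621) or 2 (0.0566) or enterocyte-enriched replicate 2 (0.0777) or 3 (0.0834). The call on Prkacb was lost with that scaling (0.17), with quantile normalization (0.0786), with no filter (0.0601) and without Lgr5-enriched replicate 1 (0.108) or 3 (0.103), goblet-enriched replicate 2 (0.101) or 3 (0.117) or enterocyte-enriched replicate 3 (0.0555). The largest of these was Prkar2b, a regulatory subunit, at 0.907 ± 0.761 TPM in enterocyte-enriched against 8.98 ± 4.25 in Lgr5-enriched and 11.2 ± 3.57 TPM in goblet-enriched libraries (SD, n = 3 each, limma adjusted p = 0.00163 and 0.000908). Its low population was thus not that of Prkg2.

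Of 12 listed transcription factors with known sites at the promoters of these genes or their relatives, 11 were tested. Between enterocyte-enriched and Lgr5-enriched libraries 2 were called higher and 3 lower, between goblet-enriched and Lgr5-enriched libraries 1 higher and 4 lower, and between goblet-enriched and enterocyte-enriched libraries 1 higher and 5 lower (medians -0.20, -0.37 and -0.32, against -0.35, -0.26 and 0.20 over all genes). Over all genes 49.6%, 34.3% and 44.1% were called, and nothing is read from the counts of so short a list. Klf4, a factor of differentiated epithelium, had the order of Guca2a: 224 to 249.7 TPM in Lgr5-enriched, 524 to 576 TPM in goblet-enriched and 875 to 1090 TPM in enterocyte-enriched libraries, with all 3 differences called (log2 2.04, 1.24 and -0.80, limma adjusted p = 3.89e-05, 0.000167 and 0.00107). Hnf4a was lowest in the goblet-enriched libraries, at 224 to 232 TPM against 380.0 to 516 TPM in Lgr5-enriched and 479 to 635 TPM in enterocyte-enriched libraries. Gata6, of the family that reads the GATA motif of the Guca2a window, averaged 106 TPM in Lgr5-enriched, 71.5 TPM in goblet-enriched and 59.5 TPM in enterocyte-enriched libraries and was called lower in both of the latter than in Lgr5-enriched libraries (limma adjusted p = 0.0312 and 0.00334), the first of which was lost with median-of-ratios scaling (0.112) and without Lgr5-enriched replicate 2 (0.0906) or 3 (0.0931) or goblet-enriched replicate 1 (0.0537), 2 (0.0503) or 3 (0.0998).

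Genes with the most similar pattern were taken by Pearson r of log2(TPM + 1) over the 9 libraries, as a description, since the 9 libraries form 3 populations. For Guca2a they were Sdf2 (r = 0.988), Ano10 (0.980), Ppp2r5b (0.977), Gsn (0.975) and Pla2g10 (0.972). Gsn had the widest range of these, with means of 31.7, 175 and 312 TPM in Lgr5-enriched, goblet-enriched and enterocyte-enriched libraries, and like Guca2a it was lowest in replicate 1 of the Lgr5-enriched and goblet-enriched populations. In the enterocyte-enriched population it was instead highest in replicate 1 (361 TPM), where Guca2a was lowest. For Guca2b they were Klhdc8a (0.994), Zp1 (0.989), Kcnh2 (0.989), Syt7 (0.987) and Dll4 (0.987). Syt7, a calcium sensor of exocytosis, averaged 5.81, 99.6 and 18.6 TPM and the Notch ligand gene Dll4 averaged 6.58, 66.6 and 14.4 TPM in the same order. For Prkg2 they included Sdc1 (0.990), Mpzl3 (0.986), Hsd17b13 (0.983) and Gm6525 (0.978), each lowest in the goblet-enriched libraries. For Gucy2c, whose own range was narrow, they were Zfp94 (0.983), Nr2e3 (0.982), Ulbp1 (0.978), Suox (0.973) and Vps33a (0.972), each with its highest mean in the Lgr5-enriched libraries on the TPM scale. The differences of Gucy2c moved with the scale, as given above, so this likeness holds for that scale only. Zfp94, Nr2e3 and Ulbp1 were low, with Lgr5-enriched means of 3.28, 3.78 and 5.28 TPM.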

How the data were processed

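Expression was measured by poly-A RNA sequencing in 9 libraries from 3 sorted populations, grouped by the antigens in the labels. The deposited table holds 1 log2 value per symbol and library; values of 0 and above are log2 of TPM, and values below 0 are TPM minus 1, as read from the values, and 0 per-sample columns were unused. Per the submitters' processing notes, Cufflinks and the mm10 build were used; for the aligner, annotation, read filters and strand setting, each was not given in the sources used here. The labels name 2 instruments, with no library assigned to either. TPM sets 1 total for every library, so an abundant transcript lowers the others.

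Whole reads were recovered from the deposited TPM for 18386 of 18396 genes above 0 (99.95%, tolerance 1e-06 of a read), giving 11.2 to 26.8 M reads (M, times 1000000) per library as lower bounds. The 12888 genes that reached 1 TPM in 3 or more libraries (5508 others were removed) entered a fit of log2(TPM + 1) by limma 3.58.1, under R 4.3.3 (lmFit, then eBayes with trend, 1 mean per population, 6 residual and 3.21 prior degrees of freedom), two-sided, with Benjamini-Hochberg adjustment over all of them. That scale understates the change of low genes. Ratios were tested by exact permutation over libraries in python 3.11.15 with numpy 2.4.6, and the exact Poisson intervals used scipy 1.17.1. The limma fit was checked on simulated data for enterocyte-enriched against Lgr5-enriched libraries. The simulated errors were independent between libraries, so that check does not cover deviations shared by same-numbered libraries. The series text names both an independent mouse per replicate and 3 mice for all 9 samples, and nothing in the labels ties a number to a mouse across populations, so p-values measure the spread between these libraries. Deviations from the population means correlated between all 9 same-numbered pairs (r = 0.194 to 0.601), and 9 of 9 libraries correlated best with their own number, so the numbers were treated as pairing the libraries in an alternative fit, although the sex-linked transcripts of enterocyte-enriched replicate 1 differ from those of the other libraries numbered 1.

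The 4 genes, the gene and marker lists and the tests were chosen with earlier results of these data known. Besides the 4 genes, listed pathway genes with a mean of at least 5 TPM in a population could be named, and the 5 genes of highest r with each of the 4. Alternatives were other pseudocounts, no filter on low values, other scalings, library weights, fewer libraries, a replicate block and, added after seeing the data, limma-voom on recovered reads. Promoters of Gucy2c and Prkg2 and protein sequences were not used here. Some named genes that this rule would include are not reported here.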

Additional observations from a re-analysis of the deposited data

How the results depend on the processing

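The differences of the 4 genes, the numbers of genes called and the called differences of pathway genes were recomputed under 20 alternatives. The ratios had fewer alternatives: a pseudocount of 1, 1 library left out, no libraries numbered 1, and the replicate block. Guca2a and Guca2b against Lgr5-enriched libraries, Guca2b between goblet-enriched and enterocyte-enriched libraries, and Prkg2 in both comparisons with goblet-enriched libraries kept sign and call in all 20. The cause of the changes that follow was not tested. Guca2a between goblet-enriched and enterocyte-enriched libraries lost its call with no low filter (-1.83, adjusted p = 0.0525) and in 4 of the fits with 1 library left out, in which its difference ranged from -2.05 to -1.51. Gucy2c between enterocyte-enriched and Lgr5-enriched libraries turned to 0.078 with median-of-ratios scaling, and lost its call with only the 6 libraries compared (-0.33), with limma-voom (-0.22) and in 7 fits with 1 library left out (range -0.44 to -0.28, adjusted p 0.0104 to 0.137). Gucy2c between goblet-enriched and Lgr5-enriched libraries gained a call with library weights (-0.36), without all libraries numbered 1 (-0.37) and without Lgr5-enriched replicate 1 (1 library left out, -0.38 to -0.23). Over all 20 alternatives that difference came as near to 0 as -0.06, and its highest limma adjusted p was 0.723. Between goblet-enriched and enterocyte-enriched libraries Gucy2c turned to -0.14 with median-of-ratios scaling and to -0.013 with limma-voom. Prkg2 between enterocyte-enriched and Lgr5-enriched libraries turned to -0.081 without enterocyte-enriched replicate 2 (range with 1 library left out -0.08 to 0.38). Genes called between goblet-enriched and Lgr5-enriched libraries numbered 7611 with library weights in place of 4423, and 2646 to 4597 with 1 library left out, the lowest without Lgr5-enriched replicate 3. With the replicate block, which pairs same-numbered libraries, Gucy2c between goblet-enriched and Lgr5-enriched libraries kept its difference of -0.28 and passed the threshold (limma adjusted p = 0.0486); no other call on the 4 genes changed, and none of the 63 called differences of pathway genes was lost. None of the 6 ratio differences changed sign. Of 63 called differences of pathway genes, 52 kept their call in all 20 alternatives, 11 lost it in some, and 0 changed sign. Depth limits Prkg2 in the goblet-enriched libraries, which held 1, 14 and 18 reads.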
